A study of Mus musculus with 3 samples.

Results

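Interactions were measured from the promoters of 7 mouse genes of organelle clearance and terminal red cell maturation. The genes were Bnip3l, Foxo3, Xpo7, Trim58, Map1lc3b, Gabarapl2 and Atg16l1. They were the members of a list of 8 whose symbol stood in the name of a captured promoter fragment, and 7 of the 7176 captured fragments with a position were selected in this way. Ulk1, the remaining symbol, stood in no listed name and was not analysed here. The method was nuclear-titrated (NuTi) Capture-C, in which chromatin is cut inside nuclei with the restriction enzyme DpnII, neighbouring pieces are ligated, and biotinylated probes pull down the ligation products of chosen fragments, called viewpoints. Each interaction was 1 unique ligation event that joined a viewpoint to a different DpnII fragment on the same chromosome. The 3 libraries formed 1 group. They came from ter119+ erythroid cells of mouse spleens. The mice were F1 hybrids of the strains C57BL/6 and CBA/J and had been given phenylhydrazine, a compound that destroys red cells, in 3 doses 12 h apart. The spleens were taken on day 5, when over 80% of their cells were CD71+ ter119+ as labelled, and no age or control group was given. Cells carrying ter119 were then selected with an antibody and magnetic beads. They are cells of a response to induced anemia, and interaction counts hold no expression by which the label could be checked. The columns were not named and are called libraries a, b and c in their order.

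Reticulocytes lose their mitochondria, ribosomes and remaining membranes after the nucleus has been expelled. In mitophagy a receptor on the mitochondrial surface, Bnip3l (also called Nix) in red cell precursors, binds ubiquitin-like Atg8 proteins that are attached to a growing membrane. Map1lc3b and Gabarapl2 encode Atg8 proteins, and Atg16l1 belongs to the complex that links them to lipid. Foxo3 is a forkhead transcription factor of late erythroid maturation, Xpo7 is a nuclear export receptor, and Trim58 is a ubiquitin ligase that acts during enucleation.

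All 7 viewpoint fragments held the annotated start of their gene. Part of the Xpo7 fragment, upstream of that start, also lay in an annotated intron of Dok2. On the mouse build mm9 they lay at chr14:67626866-67628834 for Bnip3l, chr10:41996279-41997009 for Foxo3, chr14:71166327-71166951 for Xpo7 and chr11:58453856-58455105 for Trim58. Those of the autophagy conjugation genes lay at chr8:124114094-124114382 for Map1lc3b, chr8:114464077-114464784 for Gabarapl2 and chr1:89652086-89652635 for Atg16l1. Their lengths ran from 289 bp (Map1lc3b) to 1969 bp (Bnip3l), against a median of 746 bp over all viewpoints. The authors report that short viewpoints, a class that includes the length of Map1lc3b, tended to have more interactions with other chromosomes. Such interactions are not counted here. The probes that could be read, those of Bnip3l and Atg16l1, sat at the cut ends of their fragments. One probe of Bnip3l, upstream of the gene, and one probe of Atg16l1, also upstream, are shown to mark from where the interactions were read, with the DpnII site in capitals and written on the plus strand.
Bnip3l probe, chr14:67628765-67628834: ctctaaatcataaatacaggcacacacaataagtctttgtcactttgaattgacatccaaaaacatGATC
Atg16l1 probe, chr1:89652086-89652155: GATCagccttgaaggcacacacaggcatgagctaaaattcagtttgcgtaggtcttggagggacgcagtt

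The letters AGATAA, which GATA factors bind, were searched on both strands, together with the forkhead letters GTAAACA and the E-box CACGTG of the TFEB family. AGATAA occurred at 2 places in the Bnip3l fragment and at 1 place in the Trim58 fragment, and 20.2% of all viewpoint fragments held it. Of 32851 RefSeq promoters of 300 bp (build GRCm38.p6), 11.2% held it. Those of Foxo3, Trim58, Map1lc3b and Gabarapl2 were among them, and each held 0 matches. The Bnip3l and Trim58 fragments, of 1969 and 1250 bp, are longer than these promoters and than the median viewpoint fragment, so the shares are no matched comparison. GTAAACA occurred 1 time in the Xpo7 fragment, against 8.45% of all viewpoint fragments with a match. CACGTG occurred 1 time each in the Xpo7 and the Trim58 fragments, against 19.3%. The stretches around the AGATAA matches of the Bnip3l and Trim58 fragments are shown on the plus strand of mm9, with the match in capitals. A match on the minus strand reads TTATCT.
Bnip3l, intron, chr14:67627017-67627082: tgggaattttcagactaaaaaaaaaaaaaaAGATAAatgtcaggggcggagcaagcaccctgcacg
Bnip3l, upstream of the gene, chr14:67628345-67628410: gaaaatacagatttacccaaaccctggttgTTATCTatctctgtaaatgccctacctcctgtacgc
Trim58, intron, chr11:58454745-58454810: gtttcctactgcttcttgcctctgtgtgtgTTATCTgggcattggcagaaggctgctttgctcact

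The depth ran from 1707 interactions in the sum of the libraries (Map1lc3b) to 13709 (Trim58), and it set how far each profile could be read. Trim58 gave 2840, 5477 and 5392 cis interactions in libraries a, b and c, Bnip3l 2216, 4768 and 4966, Xpo7 2472, 3869 and 3694, and Atg16l1 2262, 3191 and 3106. Foxo3 gave 993, 1584 and 1474, Gabarapl2 398, 1283 and 1340, and Map1lc3b 421, 657 and 629. The median viewpoint had 6482 interactions in the sum of the libraries, so that Foxo3, Gabarapl2 and Map1lc3b were shallow and the other 4 deeper than most. The squared correlation of counts in 5 kb windows between libraries followed this order only in part. It was 0.92 to 0.94 for Xpo7, 0.87 to 0.91 for Bnip3l and 0.85 to 0.89 for Atg16l1. Trim58, the deepest, had only 0.68 to 0.79, against 0.75 to 0.82 for Foxo3. Gabarapl2 had 0.53 to 0.74 and Map1lc3b 0.41 to 0.48. Libraries b and c differed little in the totals of the viewpoints (chi-square per viewpoint 1.52), while library a differed from both (95.9 and 101). Means and SDs are therefore given with n = 2, library a being 1 sample and the mean of b and c the other. Such an SD leaves out the difference between b and c and can be smaller than the spread of the 3 libraries. The merging rests on the totals, because within these viewpoints library a stood apart far less. From 10 to 100 kb the chi-square per fragment was 0.960 between a and b, 0.924 between a and c and 0.886 between b and c.

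Xpo7, Atg16l1 and Foxo3 placed a large part of their interactions between 10 kb and 1 Mb, and Gabarapl2, Bnip3l and Map1lc3b did not. Of the cis interactions of Xpo7, 56.0%, 53.9% and 54.1% lay in this range in libraries a, b and c (55.0% ± 1.45, SD, n = 2). For Atg16l1 these were 55.9%, 52.4% and 53.5% (54.4% ± 2.05), and for Foxo3 51.8%, 47.9% and 48.7%. In the sum of the libraries the 3 genes stood at percentiles 96.5, 96.0 and 91.1 of the 6718 viewpoints with at least 1000 interactions, whose median was 36.3%. Trim58 gave 42.6% ± 1.72, Gabarapl2 34.2% ± 0.726, Bnip3l 33.4% ± 3.16 and Map1lc3b 31.5% ± 1.85. The median over the 7 genes was 41.9%, and 4 of them lay above the median of all viewpoints. Library a gave the highest share in every gene except Gabarapl2.

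**Figure D1:**
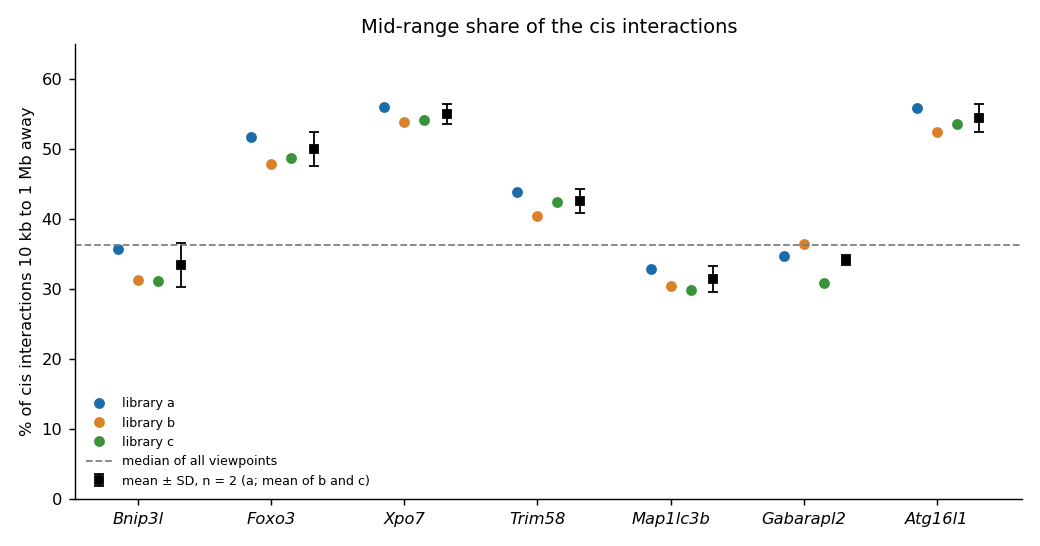
Share of cis interactions that lay 10 kb to 1 Mb from the viewpoint, in %, for each gene in libraries a, b and c (points), with the mean and SD of n = 2 (squares). The dashed line is the median of all viewpoints, 36.3%; every library of Foxo3, Xpo7, Trim58 and Atg16l1 lies above it.

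The remaining interactions were divided differently. Trim58 had few interactions from 10 to 100 kb (12.3%, percentile 19.8) and many from 100 kb to 1 Mb (29.7%, against a median of 19.6% over all viewpoints). Gabarapl2 showed the opposite, with 21.4% from 10 to 100 kb (percentile 83.5) and 12.3% from 100 kb to 1 Mb (percentile 10.3). Bnip3l had 28.9% of its interactions between 1 and 10 Mb, at percentile 92.4. Map1lc3b had 12.2% within 2.5 to 10 kb of its viewpoint, at percentile 99.4. These shares come from the summed libraries.

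Foxo3 and Xpo7 were strongly one-sided towards their own gene, and Atg16l1 leaned away from its own. Of the Foxo3 interactions from 10 kb to 1 Mb, 25.1%, 21.9% and 21.4% lay upstream in libraries a, b and c, and the distribution of DpnII fragments gave an expectation of 49.7%. For Xpo7 these were 21.6%, 22.7% and 23.3%, against 49.2% expected. The larger side held a greater share than in 97.6% of all viewpoints for both genes. Upstream shares were above expectation in all libraries for Atg16l1 (60.9%, 66.2% and 67.3%, expected 49.2%), Gabarapl2 (66.7%, 66.0% and 60.6%, expected 52.2%) and Trim58 (61.4%, 59.1% and 59.3%, expected 53.3%). Bnip3l was nearly even, with 44.6% ± 1.05 (n = 2) upstream against 49.3% expected. Map1lc3b gave 46.1% ± 0.368, but the side depended on the range, since 67.8% of its interactions from 10 to 200 kb lay upstream. The lean of Gabarapl2 also depended on the range, with 52.9% upstream from 10 to 200 kb in the sum of the libraries. Its gene of 12.9 kb lay mostly within 10 kb of the viewpoint and so outside the range.

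**Figure D2:**
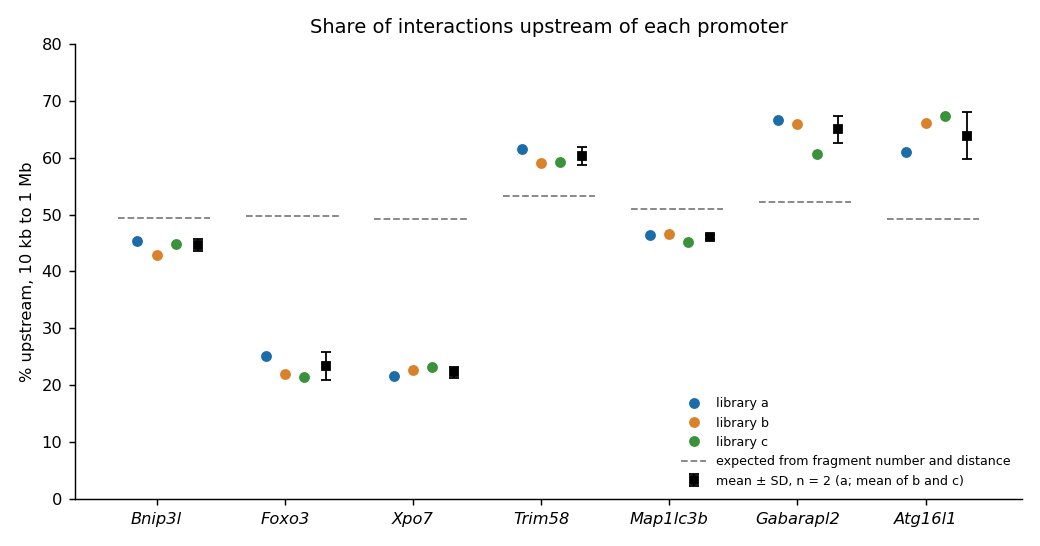
Share of the interactions from 10 kb to 1 Mb that lay upstream of each gene, in %, in libraries a, b and c (points), with the mean and SD of n = 2 (squares) and the share expected from fragment number and distance (dashed). Foxo3 and Xpo7 lie near 22.6% in the sum of the libraries, and Gabarapl2, Atg16l1 and Trim58 lie above their expectation in each library.

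To compare positions, the count of each 5 kb window was divided by an expected count, and this ratio is called observed over expected. The expected count came from the distance of the window, its number of DpnII fragments and the interactions of the viewpoint from 10 kb to 1 Mb. An excess in a part of this range therefore lowers the ratios in the rest of it. Windows from 10 kb to 1 Mb were tested with an upper-tail negative binomial test, and the p-values of all viewpoints were adjusted together (Benjamini-Hochberg). A window was called at an adjusted p under 0.05 and a count above expectation in each library. Over all viewpoints 0.123% of 2629108 windows were called, and 23.7% of viewpoints had at least 1 called window. The 7 genes had 3 called windows of 2763 tested, in 3 of the 7, namely 1 each from Xpo7, Trim58 and Map1lc3b. At an unadjusted p under 0.05 there were 185 of 2763 windows (6.70%), against 5.38% of all windows. The share of called windows was close to that of viewpoints in general.

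**Figure D3:**
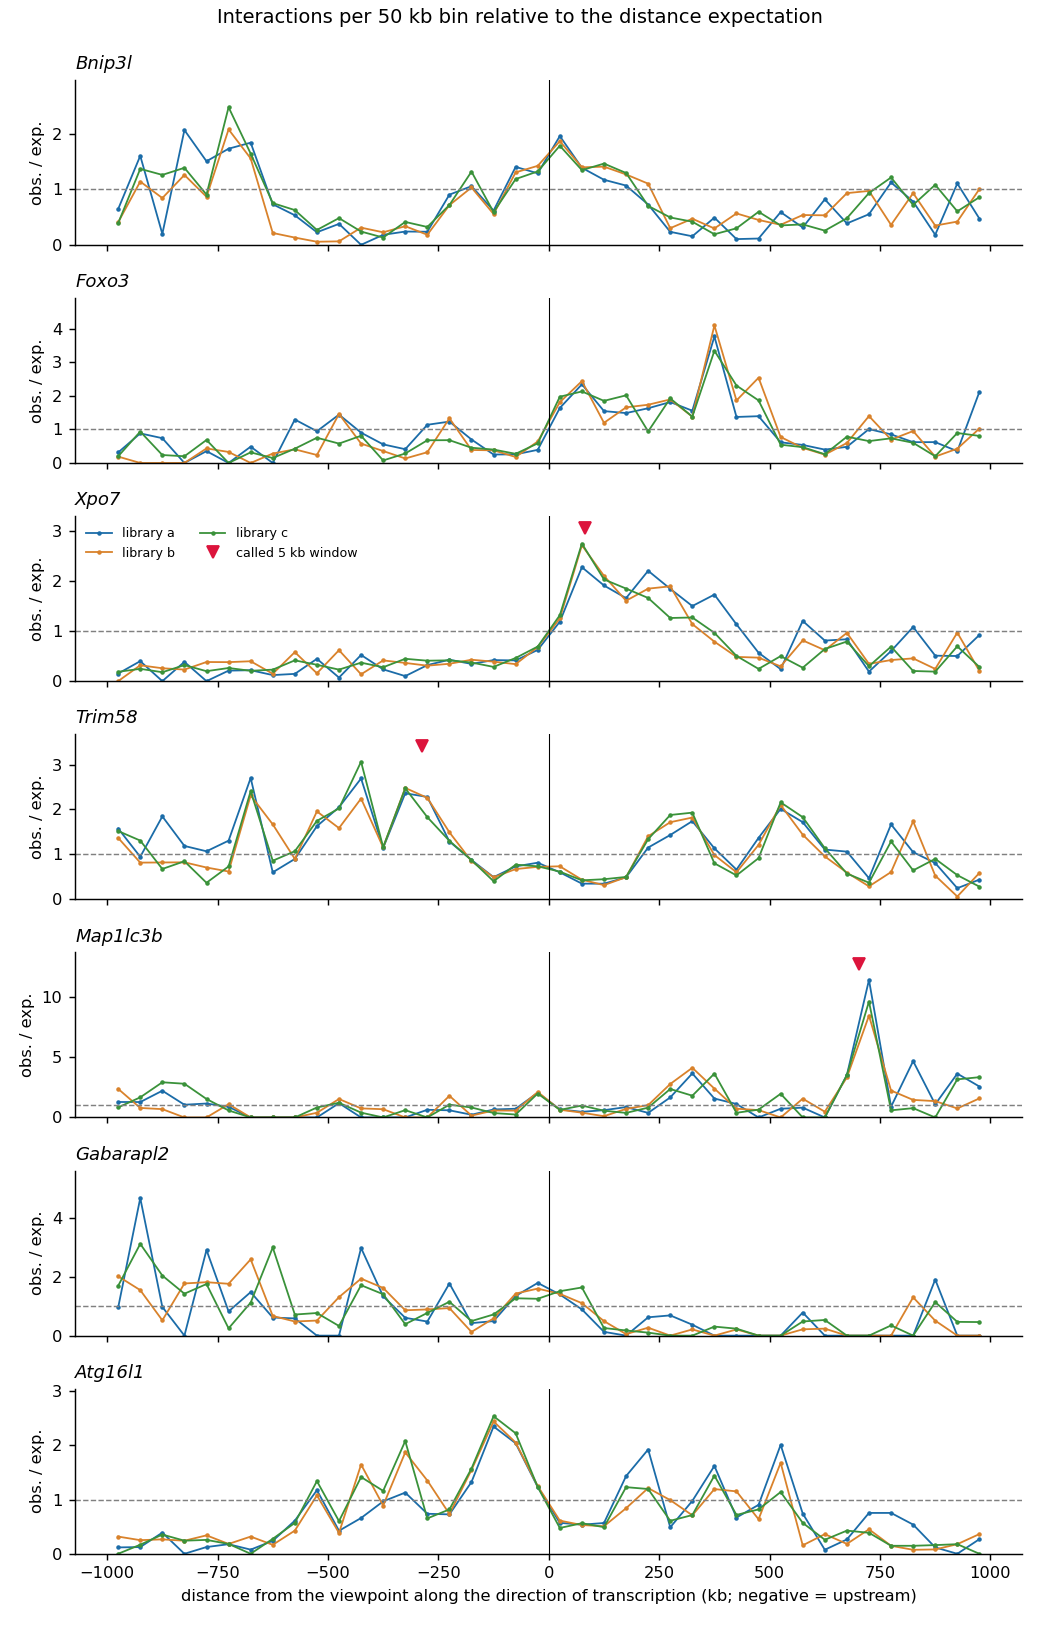
Observed over expected count in 50 kb bins along each gene, from 1000 kb upstream (negative) to 1000 kb downstream, in libraries a, b and c (lines). The grey dashed line is the distance expectation of 1 and triangles mark the 3 called windows. The lines of the libraries run together at the Xpo7 gene, at 375 kb downstream of Foxo3 (3.77, 4.10 and 3.35) and at 725 kb downstream of Map1lc3b (11.4, 8.42 and 9.59).

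Xpo7 had its called window, the one of its lowest p, in the distal part of its own gene, a transcription unit of 112 kb that runs downstream from the viewpoint. The window, chr14:71081639-71086638, lay 82.5 kb downstream over exons and introns of Xpo7. It held 24, 41 and 35 interactions in libraries a, b and c, where 6.10, 8.95 and 8.57 were expected, and every library was about 4 times above expectation (observed over expected 4.13 ± 0.283, n = 2). The negative binomial test gave an adjusted p of 0.0224. The next window, 77.5 kb downstream, held 40, 69 and 57 interactions (3.41 in the sum, adjusted p 0.0565). Between 57.5 and 102.5 kb, 5 further windows of the gene, picked for their low p, stood at 2.54 to 3.41 without being called. The other windows of this stretch had higher p-values and are not given. The call was lost without library b (adjusted p 0.0717), with 1 expected count per distance whatever the number of fragments (2.65, adjusted p 0.570), with the dispersion of all windows (0.671) and without chromosome X and a densely read stretch of chromosome 9 (0.0541). The fragment of this window shown next held 19 of its interactions and 1 AGATAA match, which lay in an intron of Xpo7.
Xpo7, 84.6 kb downstream, chr14:71082050-71082115: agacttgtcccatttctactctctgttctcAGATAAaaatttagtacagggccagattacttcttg

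On the other side of the promoter the Xpo7 profile was low relative to its own interactions from 10 kb to 1 Mb. Both sides are scaled to the same total, so the low side is tied to the high side. Within 100 kb upstream, the observed over expected count was 0.568 ± 0.0237. It was 0.384 ± 0.0238 at 100 to 250 kb and 0.254 ± 0.0458 at 500 to 1000 kb. Downstream it was 1.71 ± 0.172, 1.89 ± 0.0206 and 0.600 ± 0.139 over the same ranges. A window in Hr, 212.5 kb downstream, stood at 3.56 in the sum (adjusted p 0.243, not called), above the uncalled windows of Xpo7 just named. The downstream genes Epb4.9, which encodes the red cell membrane protein dematin (1.74 ± 0.206 over the gene), Npm2 (2.06 ± 0.188), Fgf17 (2.04 ± 0.0658), Hr (2.08 ± 0.223) and Lgi3 (2.22 ± 0.191) were all above expectation in each library. In the sum of the libraries these 5 genes had higher ratios than Xpo7 as a whole gene (1.79), which ranked 7 of 25. Of 5 windows seen from neighbouring viewpoints onto the Xpo7 promoter, 0 were called and 0 had an unadjusted p under 0.05 in the negative binomial test.

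Foxo3 showed the same one-sided form, with 2 peaks on the side of the gene. Over the 16 windows within its own gene of 94.9 kb, it gave 183, 281 and 265 interactions, an observed over expected count of 1.90 ± 0.118 (n = 2). The same distances on the opposite side gave 34, 68 and 63 interactions, or 0.437 ± 0.105. Xpo7 gave 1.74 ± 0.159 over its gene and 0.562 ± 0.0132 on the opposite side, while Atg16l1 gave 0.660 ± 0.0114 and 1.00 ± 0.0495. Among 2105 viewpoints with a gene body of at least 20 kb in range, the Foxo3 body stood at percentile 94.0 and the Xpo7 body at 91.2, and their opposite sides at percentiles 0.950 and 2.23. The Atg16l1 body stood at percentile 2.09. The gene body comparison was chosen after the profiles had been seen. Gene body and opposite side were scaled to the same total, so they are not separate results. The other 4 genes were too short for it.

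The second peak of Foxo3 lay at Sesn1, which encodes a stress-induced sestrin that restrains mTORC1. Over the 20 windows of Sesn1 there were 27, 65 and 59 interactions, an observed over expected count of 2.88 ± 0.822 (n = 2) and the highest of 19 genes with an expected count of at least 3, Foxo3 itself included. The Foxo3 window of the lowest p, chr10:41606644-41611643, lay 387.5 kb downstream over an exon of Sesn1. It held 3, 8 and 4 interactions where 0.519, 0.811 and 0.766 were expected (7.14 in the sum). By the negative binomial test it was not called (adjusted p 0.0580). When the dispersion omitted the highest 1% of windows it was called (0.0289), and its adjusted p was 0.483 without library b. The window over the shared promoter fragment of Cep57l1 and Sesn1, 467.1 kb away, held 1, 6 and 5 interactions (8.11 in the sum, adjusted p 0.0622). Seen from that promoter, the Foxo3 window held 18, 27 and 24 interactions, 4.73, 4.32 and 3.81 times the expected count, and was not called either (adjusted p 0.202). Both views were above expectation in each library, although 0 windows of Foxo3 passed the threshold and 34 of 394 had an unadjusted p under 0.05. With 10 kb windows 3 windows of Foxo3 were called.

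Atg16l1 pointed away from its own gene and towards Inpp5d, which encodes an inositol phosphatase of blood cells (SHIP1). Over the 21 windows of Inpp5d there were 428, 549 and 562 interactions. These were 2.09, 2.08 and 2.14 times the expected count, and libraries were nearly identical (2.10 ± 0.0125). This was the highest of 33 genes with an expected count of at least 3, Atg16l1 itself included. The window of the lowest p, chr1:89532361-89537360, lay 117.5 kb upstream in an intron of Inpp5d with 15, 28 and 26 interactions (3.59 in the sum, adjusted p 0.132), and was not called by the negative binomial test. Of the 395 windows of Atg16l1, 26 had an unadjusted p under 0.05. Upstream, the ratio was 1.58 ± 0.0372 within 100 kb, 1.68 ± 0.0982 at 100 to 250 kb and 0.364 ± 0.0220 beyond 500 kb, so that the enriched stretch ended within the window studied.

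**Figure D4:**
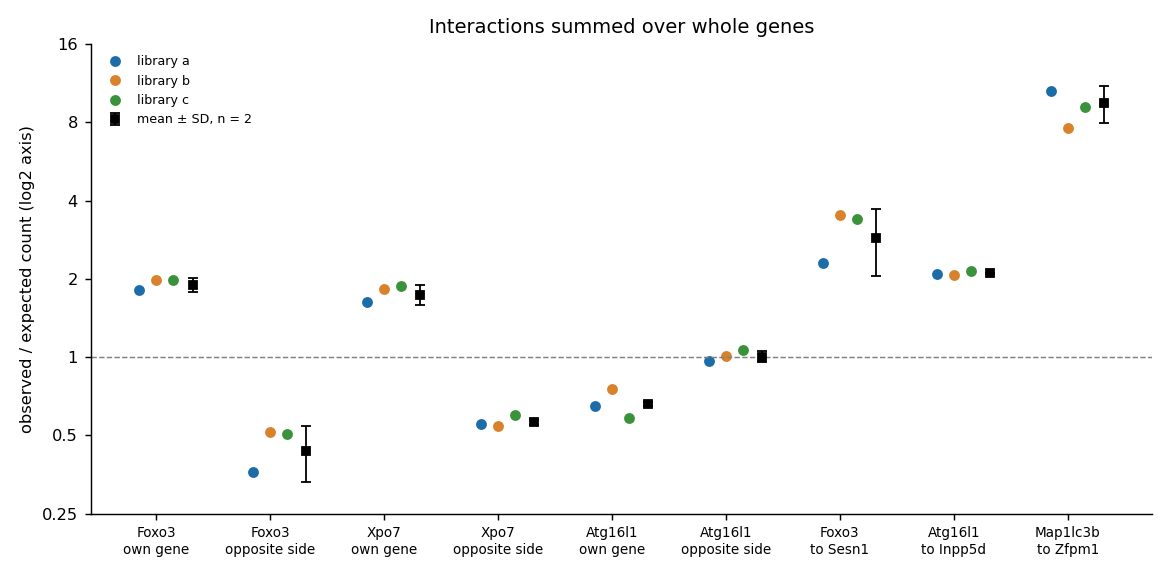
Observed over expected count, on a log2 axis, summed over the own gene of Foxo3, Xpo7 and Atg16l1, over the same distances on the opposite side, and over 3 neighbouring genes, in libraries a, b and c (points) with the mean and SD of n = 2 (squares). The own gene lies above 1 for Foxo3 and Xpo7 and below 1 for Atg16l1 in each library, and Map1lc3b to Zfpm1 is the highest, at 9.46 ± 1.53.

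Map1lc3b, the shallowest of the genes, held the largest ratio. Its called window, chr8:124814238-124819237, lay 702.5 kb downstream in an intron of Zfpm1, which encodes FOG1, a cofactor of GATA1. A read-through annotation, Gm20388, also covers it. The window held 5, 4 and 2 interactions, where 0.126, 0.201 and 0.190 were expected, so that 11 interactions stood against 0.518 (21.2 in the sum, adjusted p 0.000768 in the negative binomial test). Without library a the adjusted p was 0.0644 and the window was not called. The interactions were spread over the gene. The 12 windows of Zfpm1 held 13, 15 and 17 interactions against 5.08 expected in the sum, 9.46 ± 1.53 times the expected count (n = 2), and 0 of these windows besides the one named were called. The fragment shown next belongs to the called window and held 2 interactions, both in library a, with 1 AGATAA match in a Zfpm1 intron.
Map1lc3b, 704.1 kb downstream, chr8:124818261-124818326: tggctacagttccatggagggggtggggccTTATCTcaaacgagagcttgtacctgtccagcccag

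No viewpoint lay in the called window, so this contact could not be read from its other end. The Zfpm1 promoter, 691.8 kb from Map1lc3b, lay outside that window. The Zfpm1 viewpoint was itself shallow, with 1527 interactions, and its window at the Map1lc3b promoter held 0, 1 and 1 interactions where 0.986 were expected in the sum. From Map1lc3b, the window at the Zfpm1 promoter held 1, 1 and 3 interactions where 0.695 were expected in the sum (7.20, adjusted p 0.423), and was not called either. Slc7a5, the gene of a transporter of large amino acids, stood between them, 304.1 kb from Map1lc3b, with 10, 12 and 9 interactions from Map1lc3b and 5.05 ± 1.17 times the expected count over its 6 windows. Near the promoter Map1lc3b leaned to the other side, towards Fbxo31 (2.15 ± 0.0315) and 1110003O08Rik (2.40 ± 0.344), both upstream. From the captured Fbxo31 promoter, 11.4 kb away, the ratio was lower. The window at the Map1lc3b promoter held 17, 31 and 22 interactions against 51.2 expected in the sum (1.36 ± 0.0438) and was not called.

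Trim58 lay in a stretch of sparse interactions and had more interactions than expected from 250 to 500 kb on both sides. From 10 to 100 kb its ratio was 0.757 ± 0.0431 upstream and 0.549 ± 0.0526 downstream. From 250 to 500 kb it was 2.05 ± 0.0489 upstream and 1.29 ± 0.00886 downstream. Its called window, chr11:58164481-58169480, lay 287.5 kb upstream between genes and 5.75 kb from Sh3bp5l. It held 7, 16 and 10 interactions where 0.979, 1.80 and 1.87 were expected. The ratios were 7.15, 8.88 and 5.36 in libraries a, b and c (7.13 ± 0.0244, n = 2). This SD leaves out the difference between b and c. By the negative binomial test the window was called (adjusted p 0.0103). The window held 4 DpnII fragments. With 1 expected count per distance the ratio was 2.52 and the window was not called (adjusted p 0.984), and it was not called without library b (adjusted p 0.128). One of its fragments held 9 interactions and 2 AGATAA matches on the minus strand, 9 bases apart. The stretch with both is shown.
Trim58, 287.7 kb upstream, chr11:58166706-58166786: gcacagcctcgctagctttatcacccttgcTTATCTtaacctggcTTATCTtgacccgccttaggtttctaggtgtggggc

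The 5 kb windows of the members as a whole held a median of 3 AGATAA matches, and 91.5% held at least 1, so a match in a called window is no feature of it. The called windows held 3 (Xpo7), 2 (Trim58) and 4 (Map1lc3b).

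Around the called Trim58 window, the genes Sh3bp5l (2.51 ± 0.132), Zfp692 (2.94 ± 0.253) and, farther upstream, the interferon-induced GTPase genes Irgm2 (2.84 ± 0.329) and Igtp (3.21 ± 0.316) were above expectation in every library. No viewpoint lay in the called window, so its contact could not be read from the other end. The following views onto the Trim58 promoter came from captured promoters outside that window. From the Zfp692 promoter, 334.0 kb away, the Trim58 window held 4, 6 and 7 interactions. These were 5.75, 5.11 and 6.30 times the expected count (5.73 ± 0.0302, adjusted p 0.127). From Zfp672, 317.7 kb away, it held 10, 15 and 19 (5.04 ± 0.876, adjusted p 0.130). From Sh3bp5l, 310.4 kb away, it held 1, 7 and 3, which was not above expectation in library a (0.994, 4.79 and 2.03, adjusted p 0.845). From the histone gene viewpoint Hist3h2ba, 308.1 kb away on the downstream side, it held 11, 13 and 13 (3.98 ± 0.725, adjusted p 0.318). Of the 23 viewpoints that saw the Trim58 promoter between 10 kb and 1 Mb, 21 were above expectation and 13 had an unadjusted p under 0.05, and 0 were called by the negative binomial test. Summed over these views there were 222 interactions against 65.6 expected. Over all viewpoints, windows with another captured promoter had a mean ratio of 1.47, and 0.865% of them were called. Their shares above expectation or under an unadjusted p of 0.05 were not computed, so the counts of 21 and 13 have no comparison.

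Bnip3l, the mitophagy receptor gene, had more interactions than expected within 100 kb of its promoter and in some 50 kb bins far upstream. The ratio was 1.33 ± 0.0125 upstream and 1.69 ± 0.0646 downstream from 10 to 100 kb. It was 0.246 ± 0.0450 upstream and 0.314 ± 0.130 downstream from 250 to 500 kb. Over 500 to 1000 kb upstream as a whole it was 0.998 ± 0.0936, close to expectation. In the 50 kb bin centred 725 kb upstream, which holds the shared promoter of Cdca2 and Kctd9, it stood at 1.74, 2.09 and 2.49 in libraries a, b and c. In the bin centred 675 kb upstream it was 1.85, 1.56 and 1.65. The Bnip3l window of the lowest p on the upstream side lay 747.5 kb away, over an exon of Dock5. It held 2, 4 and 2 interactions (4.60 in the sum, adjusted p 0.560 in the negative binomial test) and was not called. From the shared viewpoint of Cdca2 and Kctd9, 706.0 kb away, the window at the Bnip3l promoter held 5, 9 and 6 interactions against 1.89 expected in the sum (10.8 ± 0.651, adjusted p 0.00612) and was called. It was lost without library b (adjusted p 0.0776) and with 1 expected count per distance (adjusted p 0.0680). In the other direction the window at that viewpoint held 0, 1 and 4 interactions against 2.61 expected and was not called. The difference between both views was not tested. Seen from Bnip3l, Cdca2 as a whole gene gave 1.96 ± 0.126 times the expected count, the highest of 18 genes in the sum, Bnip3l itself included.

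The Bnip3l window of the lowest p lay 57.5 kb downstream between genes, at chr14:67567850-67572849. It held 19, 34 and 30 interactions (2.67 ± 0.219 times the expected count) and was not called in the negative binomial test (adjusted p 0.353). Of its 395 windows 14 had an unadjusted p under 0.05.

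Gabarapl2 interacted with some of its neighbours, and sparsely downstream beyond 100 kb. Within 100 kb the ratio was 1.51 ± 0.167 upstream and 1.31 ± 0.159 downstream, with Tmem231 (1.80 ± 0.184), Adat1 (1.70 ± 0.140) and Kars (1.67 ± 0.420), the lysyl-tRNA synthetase gene, above expectation in each library. Other near genes were not above expectation in each library, namely Chst5 (1.58, 0.831 and 0.582), Tmem170 (1.91, 1.35 and 0.725) and Terf2ip (0, 0.811 and 1.68). From 100 to 250 kb downstream 30 interactions stood against 124 expected (0.214 ± 0.0494), and from 250 to 500 kb 9 against 80.3 (0.186 ± 0.142). The corresponding upstream values were 0.705 ± 0.0998 and 0.997 ± 0.0627. From 500 to 1000 kb the ratio was 1.26 ± 0.203 upstream and 0.247 ± 0.0246 downstream. The window of the lowest p lay 797.5 kb upstream in the non-coding gene 9430091E24Rik, with 2, 3 and 1 interactions (adjusted p 0.160), and was not called. Of its 395 windows 18 had an unadjusted p under 0.05.

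Windows that held another captured promoter had higher ratios than windows that did not. Viewpoint fragments themselves are not listed as interaction partners (0 of 4988195 listed fragments started at a viewpoint), so this is the signal of the fragments beside them. Over the 75 such windows of the 7 genes the ratio was 1.80, 2.04 and 1.90 in libraries a, b and c (1.88 ± 0.120, n = 2). It was 1.47 ± 0.00786 over all viewpoints. Windows without another viewpoint gave 0.976 ± 0.00666 for the 7 genes and 0.980 ± 0.000618 for all. In 5 kb windows Map1lc3b was highest (2.70 ± 0.271), followed by Trim58 (2.16 ± 0.0384, 24 windows), Gabarapl2 (2.03 ± 0.373), Foxo3 (1.92 ± 0.184) and Bnip3l (1.83 ± 0.256), whose SDs overlap from one neighbour in this order to the next except between Map1lc3b and Trim58. In 2 kb windows Gabarapl2 (2.98 ± 0.760) stood above Map1lc3b (2.78 ± 0.999), within their SDs. In 5 kb windows Xpo7 (1.34 ± 0.316) and Atg16l1 (1.29 ± 0.370) were lower, and 1 library of Atg16l1 was below 1. Of 86388 windows with another promoter 0.865% were called over all viewpoints, and of the 69 views onto the 7 promoters 1 was called, that of Bnip3l from Cdca2 and Kctd9.

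**Figure D5:**
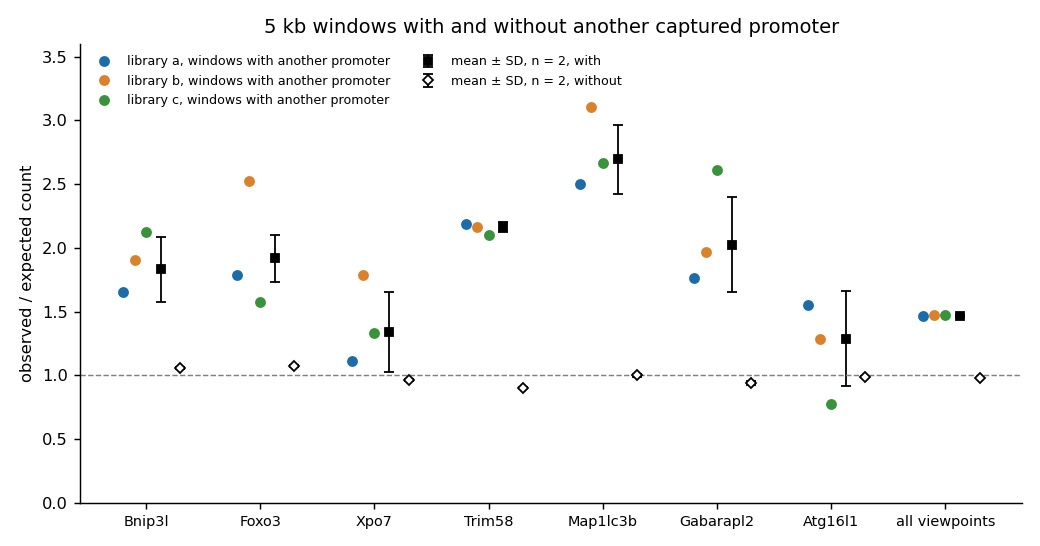
Observed over expected count of 5 kb windows that held another captured promoter, in libraries a, b and c (points) with the mean and SD of n = 2 (squares), and of windows without one (diamonds). All 7 genes and all viewpoints together have a mean above 1 for windows with another promoter, from 1.29 for Atg16l1 to 2.70 for Map1lc3b, and stay near 1 without.

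Bnip3l and Xpo7 share a chromosome with each other and with Slc25a37, the mitochondrial iron importer mitoferrin, and Map1lc3b shares one with Gabarapl2. Interactions within 50 kb of the partner were counted in both directions. Bnip3l met Slc25a37, 2.28 Mb away, with 16, 45 and 43 interactions (3.10 ± 0.399 times the expected count), and Slc25a37 met Bnip3l with 18, 38 and 42 (3.35 ± 0.813). Xpo7 met Slc25a37, 1.26 Mb away, with 32, 35 and 30 interactions (4.09 ± 1.08), and the reverse view gave 27, 35 and 41 (2.19 ± 0.133). Between Bnip3l and Xpo7, 3.54 Mb apart, the ratios were 1.38 ± 0.130 and 2.39 ± 0.0475. Gabarapl2 met Map1lc3b, 9.65 Mb away, with 3, 4 and 6 interactions (6.50 ± 2.90), and Map1lc3b met Gabarapl2 with 2, 3 and 8 (6.82 ± 2.66). All 8 views were above expectation in each library. By the negative binomial test over 732504 pairs, of which 0.146% were called, 0 of the 8 views passed (adjusted p 0.165 to 0.394), and 5 had an unadjusted p under 0.05. The shares of all pairs above expectation or under this unadjusted p were not computed. The counts of 8 and 5 views therefore have no comparison and are no result about these genes.

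Other genes of autophagy, mitophagy and reticulocyte maturation gave a share of calls similar to that of viewpoints in general. From 76 listed symbols 67 viewpoints were found, 60 of them had at least 1000 interactions, and 14 had a called window (23.3%, against 23.7% of all viewpoints), with 23 called windows in all. The 5 viewpoints with most called windows were a Tmcc2 promoter, the shared promoter of Gabarapl1, an Atg8 gene related to Gabarapl2, with 1700101I11Rik, and the shared promoter of Atg12 and Ap3s1, with 3 each, and those of Slc35a5 with Atg3 and of Wipi1, with 2 each. The shared promoter of Thap4 and Atg4b also had 2 and was placed after them by its lowest p. Atg3 and Atg12 act in the conjugation of Atg8 proteins, and Wipi1 binds the lipid of the forming membrane.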

How the data were processed

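NuTi Capture-C libraries were read from the deposited signal values, which the authors had made by trimming (Trim Galore), alignment to mm9 (Bowtie), removal of duplicates and scaling to a fixed total per viewpoint and library. Trim Galore and Bowtie are named in the submitters' processing notes, and the aligner version is not given in the sources used here. Since the smallest value of a viewpoint and library is 1 event, whole counts were worked back (100% whole within 0.01 events), 18230099, 34428035 and 34233560 in libraries a, b and c. Viewpoints with at least 1000 cis events were tested. Expected counts came from 50 distance bins, and the dispersion of 20 bins left out the highest 0.1% of standardised windows. Genes were taken from GENCODE on mm9 (NCBIM37). Python 3.11.15, numpy 2.4.6, pandas 2.3.3 and scipy 1.17.1 were used, and the fit was tested on simulated data. Of 50 windows planted at 3 times the expected count 0 were called, against 40% at 5 times, 98% at 10 times and 100% at 20 times. A missing call at about 3 times the expected count therefore says little. Windows with an expected count as low as that of the called Map1lc3b window (0.518) or the Gabarapl2 window of the lowest p (0.569) were not planted. These shares therefore do not hold for such windows. The planted folds had no spread of their own, and the simulated dispersion was 0.2, against up to 0.438 in the data. The authors' caller peaky was not run. Replicates are libraries, and nothing says that they came from separate mice, so SDs measure the spread between these libraries, which may be technical. The p-values come from counts summed over the libraries, with the dispersion taken across the windows of all viewpoints. They measure the departure of a window from its expected count and not the spread between libraries. All genes of the list are named, with up to 3 runs of called windows each, or else the window of the lowest p, and of the pathway list the 5 viewpoints with most called windows, ties being broken by the lowest p. The genes and lists were chosen with earlier results of these data known.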

Additional observations from a re-analysis of the deposited data

How the results depend on the processing

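The 3 called windows of the 7 genes became 7 when the dispersion omitted the highest 1% of windows, 6 with 10 kb windows, 5 with the range from 20 kb and 0 with single fragments, where 0 genes had a call instead of 3. The genes with a call changed too. With 10 kb windows Foxo3 had 3, Map1lc3b 2, Trim58 1 and Xpo7 0. With 2 kb windows Xpo7, Trim58 and Atg16l1 had 1 each and Map1lc3b 0. Without library a Foxo3 had 2, Xpo7 and Trim58 1 each and Map1lc3b 0. Leaving out 1 library in turn gave 1 to 4 called windows in 1 to 3 genes, the lowest without library b. The upstream share moved by more than 1 SD when the range was 10 to 200 kb, to 41.4% for Bnip3l, 17.7% for Foxo3, 62.1% for Trim58, 67.8% for Map1lc3b, 52.9% for Gabarapl2 and 72.5% for Atg16l1. With the range from 2.5 kb it moved to 45.8% for Bnip3l, 25.0% for Xpo7 and 54.1% for Map1lc3b. It kept its side of 50% in 33 of 35 alternatives, the exceptions being both ranges of Map1lc3b, and leaving out 1 library gave 45.7% to 46.4% there. The opposite side of Atg16l1 stood at 1.00 and at 0.916 with 10 kb windows. Of the 8 long-range views 0 were called in any alternative run. Over all viewpoints the 3243 called windows became 482 with the dispersion of all windows, 4967 with the highest 1% omitted, 2244 with 10 kb windows, 920 with single fragments, 1534 with 1 expected count per distance and 1962 without library b, and the 1066 long-range pairs 2518 within 100 kb and 411 within 20 kb. Alternatives for gene bodies, neighbouring genes and views from other viewpoints were chosen after seeing the data. No paired analysis was possible because there is 1 group. Depth limits Map1lc3b and Gabarapl2 most, with 215 and 191 of 395 windows empty. Fewer cells in contact and weaker contact in all cells cannot be told apart.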
